A study of Rattus norvegicus with 8 samples.

Results

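Epithelial neoplasia of the rat oesophagus was compared with adjacent normal oesophagus of the same animal in rats fed a riboflavin-normal diet. The arrays were chosen by their titles, which name the riboflavin-normal diet combined with N-nitrosomethylbenzylamine (NMBA), and this gave 4 of the 8 arrays of the series and 2 of its 4 animals. Each animal gave 1 neoplasia array and 1 adjacent normal array, and both carry the same animal code, so the comparison has 2 pairs, called pair 1 and pair 2 after the replicate numbers in the titles. The question is which genes and pathways differed between neoplasia and normal tissue in the same direction in both animals.

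All 4 animals of the series received NMBA under the skin at 0.35 mg/kg, 3 injections per week for 5 weeks, and were killed at week 25. NMBA is a nitrosamine that methylates DNA and induces squamous tumours in the rat oesophagus. The other 4 arrays, also 2 pairs, came from rats given the same NMBA course and a riboflavin-deficient diet throughout. Adjacent normal tissue had therefore been exposed to the carcinogen as well, and no array of an unexposed animal was analysed here. Strain, sex and age are not stated in the labels. The tissue was paraformaldehyde-fixed and embedded in paraffin before the pieces of interest were taken, and RNA was amplified as biotin-labelled cDNA with a kit for fixed tissue.

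The rat oesophagus is lined by a keratinising stratified squamous epithelium. Basal cells divide and move upward, and on the way they make keratins, desmosomes and small proteins that transglutaminases cross-link into the cornified envelope. Inhibitors of cysteine and serine proteases, the stefins and the clade B serpins, are made in the upper layers and hold shedding and inflammation in check. Beneath the epithelium lie connective tissue, smooth muscle and a coat of striated muscle, so a piece of tissue can hold any of these.

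Promoter sequences are shown for genes that stood out in both pairs, so that the letters at their starts can be seen beside the values that follow. Each window runs from 250 bases before to 50 bases after the gene start, is written 5′ to 3′ on the gene's strand, and is taken from RefSeq (build GRCr8). The first 3 genes were higher in neoplasia of both animals: Sprr1b, a small proline-rich envelope precursor at chr2:180706306-180706605 (minus strand), Serpinb5 or maspin at chr13:23499953-23500252 (plus strand), and Tmprss11b, a membrane serine protease, at chr14:21738510-21738809 (plus strand). Capitals mark the AP-1 letters TGANTCA, which read the same on both strands, and in Sprr1b also TATAAA.
Sprr1b: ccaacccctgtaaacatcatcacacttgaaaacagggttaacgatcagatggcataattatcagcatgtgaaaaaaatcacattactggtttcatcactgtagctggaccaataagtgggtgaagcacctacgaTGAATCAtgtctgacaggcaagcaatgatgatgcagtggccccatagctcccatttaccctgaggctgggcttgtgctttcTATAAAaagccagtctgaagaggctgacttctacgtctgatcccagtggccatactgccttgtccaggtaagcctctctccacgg
Serpinb5: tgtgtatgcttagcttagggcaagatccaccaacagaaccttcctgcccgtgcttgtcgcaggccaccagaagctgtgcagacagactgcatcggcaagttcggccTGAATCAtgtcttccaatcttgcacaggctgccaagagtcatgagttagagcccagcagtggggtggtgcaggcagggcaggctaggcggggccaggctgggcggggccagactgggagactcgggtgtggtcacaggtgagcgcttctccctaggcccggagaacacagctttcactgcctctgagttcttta
Tmprss11b: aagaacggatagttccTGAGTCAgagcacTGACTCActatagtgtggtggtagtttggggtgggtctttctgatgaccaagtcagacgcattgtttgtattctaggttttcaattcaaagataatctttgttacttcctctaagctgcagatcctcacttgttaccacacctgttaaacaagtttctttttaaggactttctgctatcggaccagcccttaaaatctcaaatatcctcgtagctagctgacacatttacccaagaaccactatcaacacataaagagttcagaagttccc

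Klhl41, a stabiliser of muscle thin filaments, at chr3:74841868-74842167 (plus strand), and Xirp2, a protein of striated-muscle cell junctions, at chr3:72533936-72534235 (plus strand), were lower in neoplasia of both animals. Capitals mark a Mef2 motif, searched as CTA, then any 4 bases, then TAG, a pattern that also reads the same on both strands. The Xirp2 window also holds the AP-1 letters, as TGACTCA, left here in lower case.
Klhl41: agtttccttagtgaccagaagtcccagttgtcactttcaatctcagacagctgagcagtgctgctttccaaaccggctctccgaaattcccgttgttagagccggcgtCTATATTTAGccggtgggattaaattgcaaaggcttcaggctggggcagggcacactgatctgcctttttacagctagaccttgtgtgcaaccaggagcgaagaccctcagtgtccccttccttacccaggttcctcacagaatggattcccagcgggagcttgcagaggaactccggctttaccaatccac
Xirp2: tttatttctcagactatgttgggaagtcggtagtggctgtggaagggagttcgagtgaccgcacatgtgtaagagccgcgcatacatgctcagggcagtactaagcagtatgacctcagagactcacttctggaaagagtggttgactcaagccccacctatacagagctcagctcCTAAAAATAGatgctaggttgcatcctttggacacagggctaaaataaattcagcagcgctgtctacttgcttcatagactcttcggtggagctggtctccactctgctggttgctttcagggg

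Stfa2 at chr11:78049536-78049835 and Csta at chr11:78125563-78125862 (both plus strand) are cysteine protease inhibitors of 1 gene cluster and were higher in both animals. Their windows had 234 of 300 bases in common (78%) in a pairwise alignment, and capitals mark the 97 bases that lie in shared runs of at least 12.
Stfa2: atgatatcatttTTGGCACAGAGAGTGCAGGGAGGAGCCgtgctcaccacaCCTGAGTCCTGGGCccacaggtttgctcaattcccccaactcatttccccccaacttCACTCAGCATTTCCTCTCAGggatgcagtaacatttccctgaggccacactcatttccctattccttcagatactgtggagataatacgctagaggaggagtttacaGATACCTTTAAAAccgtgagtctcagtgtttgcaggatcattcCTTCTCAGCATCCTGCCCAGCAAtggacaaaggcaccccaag
Csta: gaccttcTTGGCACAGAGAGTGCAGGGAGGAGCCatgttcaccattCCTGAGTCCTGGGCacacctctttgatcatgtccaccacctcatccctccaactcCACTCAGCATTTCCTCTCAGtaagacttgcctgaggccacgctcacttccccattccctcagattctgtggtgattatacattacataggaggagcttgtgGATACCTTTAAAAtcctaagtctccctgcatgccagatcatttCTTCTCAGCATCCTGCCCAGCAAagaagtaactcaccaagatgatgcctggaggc

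The motifs were picked after the genes were known, and a match is a description of letters, not of a bound site. Among 17125 promoters of measured genes, TGANTCA was present in 6.42%. It was present in 8 of the 55 promoters (14.5%) of genes at least 1 higher in both pairs. Of the 11 promoters of genes at least 1 lower, 1 (9.09%) held it, that of Xirp2. The Mef2 motif was present in 3.38% of all promoters, in 5.45% of the higher genes' and in 2 of the 11 lower genes' promoters (18.2%), those of Klhl41 and Xirp2. AGGAAGT (Ets factors) was present in 8.15% of all and 10.9% of the higher genes' promoters, CCACACCC (Klf factors) in 3.43% and 7.27%, and TATAAA in 12.2% and 16.4%, each searched on both strands. Of the 11 lower genes' promoters, 0 held the Ets letters, 0 the Klf letters and 3 (27.3%) TATAAA. In the windows printed, no marked match overlaps another.

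The deposited values are log2 expression, on which a difference of 1 is a 2-fold difference. A single gene symbol could be given to 22093 genes, each represented by the probe set with the highest mean, with a median value of 5.11 and a ceiling of 19.93 that 16 genes reached on at least 1 of the 4 arrays. The adjacent normal array of pair 1 stood apart. Its control separation, the share of comparisons in which a positive control probe set (399) read brighter than a negative one (1153), was 0.577, against 0.696 on its neoplasia partner, 0.757 on the normal array of pair 2 and 0.694 on the neoplasia array of pair 2. The control separation of neoplasia minus normal was thus 0.119 in pair 1 and -0.063 in pair 2, and the spread (SD) of gene values moved the same way, by 0.257 and -0.128. The negative controls had medians from 5.10 to 5.41 on the 4 arrays. Some genes given below as differences alone read near or below this, so the direction of their steps is uncertain. Among them are Rfk, Slc52a2, Slc52a3, Il1a, Il1b, Igfbp3, Cenpe, Cxcr2, Chek1, Crnn and Ocln. Correlations between the 4 arrays over all genes ran from 0.916 to 0.973, lowest between both normal arrays and highest between both neoplasia arrays. The part of these quality differences in the results below was not tested, and both pairs are therefore given side by side throughout.

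The tissue labels were checked against defining markers, as a rough check, since probe sets differ in brightness. All 7 suprabasal squamous markers (among them Krt4, Krt13, Sprr3 and Ivl) read above the all-gene median on every array, with a median of 16.5 on the normal array of pair 1 and from 19.7 to 19.8 on the other 3. All 4 measured basal markers, all 5 measured skeletal muscle markers and all 5 smooth muscle markers also read above it on every array, in normal tissue and neoplasia alike. The label of epithelial neoplasia thus covers pieces that still held muscle RNA. Neutrophil-defining markers (Mpo, Elane, Csf3r, Cxcr2) were above the median for 0 or 1 of 4 genes per array, and markers of B cells and simple or glandular epithelium for none.

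The pairs agreed on few genes. In pair 1, 904 genes (4.09%) were at least 1 higher in neoplasia and 380 (1.72%) at least 1 lower. Pair 2 had the opposite balance, with 252 (1.14%) higher and 651 (2.95%) lower. At least 1 higher in both pairs were 71 genes (0.321% of all), and at least 1 lower in both were 18 (0.0815%). With predicted genes and small RNAs left out, the higher genes with the largest agreement included Sprr1b, protease inhibitors and Cd44, and the lower ones included Lmod2, Pdlim3 and Klhl41 of striated muscle. In such bulk tissue, fewer cells of a type and less RNA per cell cannot be told apart. Another 146 genes were at least 1 higher in pair 1 and at least 1 lower in pair 2, and 8 the other way round. Over all genes 4645 (21%) were above 0 in both pairs, 3864 (17.5%) below 0 in both and 13475 (61%) of opposite sign. The 21% and 17.5% are the background for the list counts below. The pair differences correlated at r = -0.15 (Spearman's rho -0.21) across genes, which are not independent of each other.

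No single gene passed the test. In limma, with each animal as a block and the deficient pairs lending their spread, 0 of 22093 genes (0%) had a Benjamini-Hochberg adjusted p under 0.05, and the lowest adjusted p was 1. Before adjustment 806 of 22093 genes had a limma p under 0.05, of which 566 were higher and 240 lower in neoplasia. This share is below 0.05, the share that would be reached with no difference in any gene. An exact test of 1 gene over 2 pairs cannot go below 0.5. The values below are therefore descriptions of these 2 animals. Of the 71 higher genes 68, and of the 18 lower genes 13, were among the 806, but they were picked for size in the same arrays, so this is no separate evidence.

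**Figure D1:**
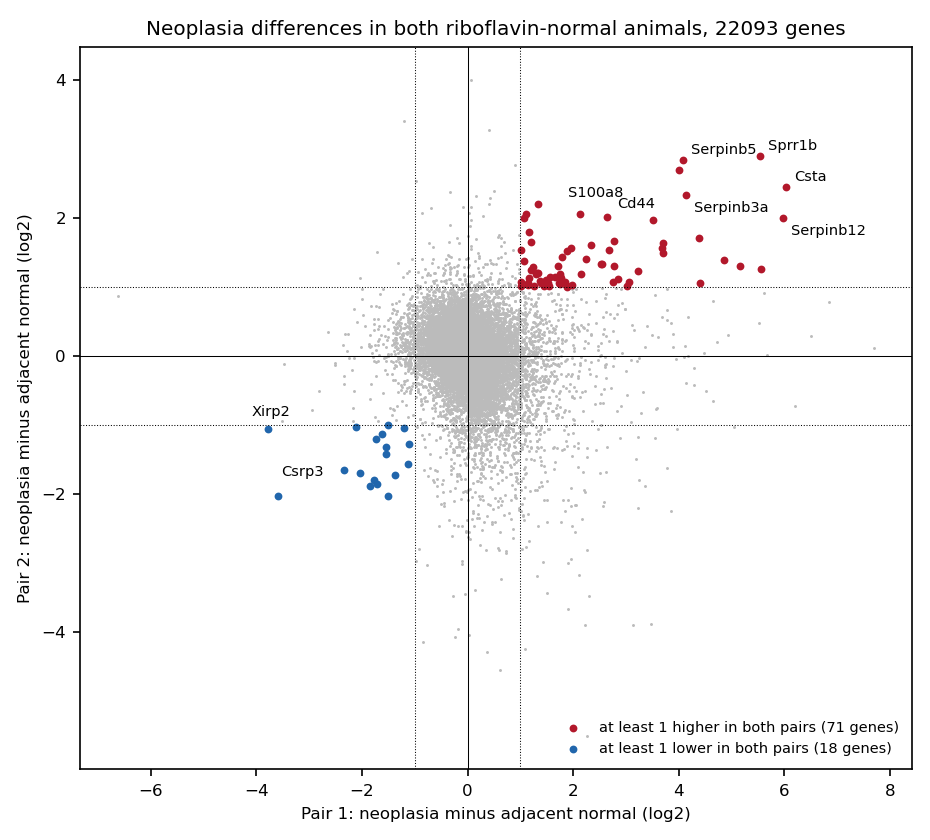
Each point is 1 of 22093 genes, placed by its neoplasia minus adjacent normal log2 difference in pair 1 (x axis) and pair 2 (y axis); dotted lines mark differences of 1 and -1. The 71 genes at least 1 higher in both pairs are red and the 18 at least 1 lower in both are blue, while the whole cloud leans slightly from upper left to lower right (r = -0.15).

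Among the cornified envelope precursors, Sprr1b stood out in both animals. Its log2 value was 8.06 in normal tissue and 13.59 in neoplasia of pair 1, and 9.61 and 12.50 in pair 2. Both neoplasia arrays lay above both normal arrays. The mean difference was 4.21 ± 0.64 (SE from limma, 2 pairs; unadjusted p = 0.00151, adjusted p = 1). Here and below, the SE comes from the limma fit over all 8 arrays. It also draws on the deficient pairs, so it is not the spread of these 2 pairs alone. Sprr2d, a relative of Sprr1b in the same gene cluster, differed by 5.15 and 1.31, starting from 13.47 and 18.39 in normal tissue. Flg, which encodes filaggrin, the keratin-bundling protein of the granular layer, read 5.28 and 8.05 in pair 1 and 4.72 and 6.39 in pair 2, so its groups did not overlap either. Lce1e, a late cornified envelope gene outside the lists, read 8.46 and 10.71 in pair 1 but 11.61 and 13.02 in pair 2, and its neoplasia array of pair 1 lay below the normal array of pair 2.

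The list as a whole did not behave alike in both animals. Of 27 envelope precursors measured, 13 were above 0 in both pairs, 2 below 0 in both (Lce1m at -0.98 and -0.33, Crnn at -0.63 and -0.06), and 4 at least 1 higher in both. The median was 2.68 in pair 1 and 0.12 in pair 2, beside medians of -0.06 and 0.07 over all genes. Beside this, the suprabasal markers had their lowest median on the normal array of pair 1, which also had the lowest control separation of the 4. The keratins Krt4 and Krt13 of the suprabasal layers differed by 2.14 and 3.10 in pair 1 and by -0.01 and -0.06 in pair 2, and Krt4 was at the ceiling on 2 arrays, so that its differences are bounds. Without pair 1 their direction is turned.

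Of the 39 lists, squamous protease inhibitors held the most genes at least 1 higher in both animals. Of 32 measured, 16 were above 0 in both pairs, 3 below 0 in both, and 10 at least 1 higher in both, beside 0.321% of all genes. The medians were 0.75 and 0.54. All 10 are stefins, clade B serpins or Spink5, the last an inhibitor of the kallikreins that shed surface cells.

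Serpinb5, or maspin, read 7.18 in normal tissue and 11.26 in neoplasia of pair 1, and 9.20 and 12.04 in pair 2. The arrays of the groups did not overlap, and the mean difference was 3.46 ± 0.64 (limma SE, 2 pairs). Serpinb3a, of the squamous cell carcinoma antigen family of serpins, read 11.94 and 16.08, then 14.94 and 17.28. Serpinb12 read 9.74 and 15.71, then 13.31 and 15.31, again without overlap. The other 3 serpins, named after their values were seen, were unlike these in being farther apart in pair 2 than in pair 1: Serpinb2 at 1.34 and 2.20, Serpinb3 at 1.08 and 2.00, and Serpinb10 at 1.10 and 2.06. Serpinb9, a granzyme B inhibitor in rodents and humans, was below 0 in both, at -0.16 and -0.60.

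Among the stefins, Csta (cystatin A, which inhibits cathepsins and is built into the envelope) read 9.64 and 15.67 in pair 1 and 12.91 and 15.36 in pair 2. Its mean difference was 4.24 ± 1.09 (limma SE, 2 pairs), with no overlap of the groups. Stfa2 read 6.97 and 9.31, then 6.62 and 8.23, with a mean difference of 1.98 ± 0.23. Of the 15 higher genes named by size it had the smallest standard error. Stfa2l3 differed by 2.52 and 1.33 and Csta3 by 3.51 and 1.97. These are related genes of 1 cluster, so their probe sets may read each other's RNA, which was not tested. Wfdc21, a whey acidic protein type inhibitor, was the clearest exception in the list, at -0.76 and -3.04.

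**Figure D2:**
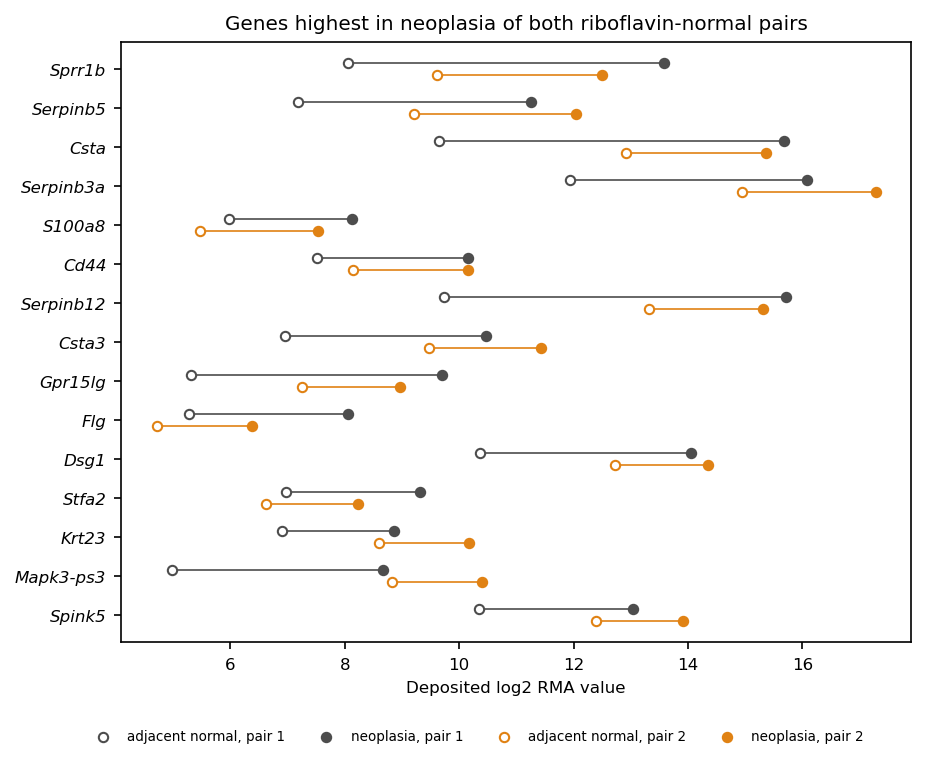
Deposited log2 values of the 15 genes with the largest difference reached in both pairs, by the naming rule; open circles are adjacent normal, filled circles neoplasia, grey is pair 1 and orange pair 2. In every gene shown the filled circle lies to the right of the open circle of the same animal, and the step is longer in pair 1.

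Both clusters of inhibitors are runs of neighbouring genes. RefSeq order (GRCr8, used here for names and order only) was counted over measured genes alone, so unmeasured genes may lie between them. Serpinb5, Serpinb12, Serpinb3a, Serpinb3, Serpinb2 and Serpinb10 are 6 of 10 successive measured genes, 8 of which were above 0 in both pairs. Csta3, Stfa2, Stfa2l3 and Csta are 4 of 8 successive genes. The other members of that stefin run, among them Cstdc4, were not above 0 in both pairs. Those with a promoter window did not follow in pair 1: Stfa2l1 differed by -0.74 and 1.64, Stfa2l2 by -0.09 and 0.99, and Stfa3l1 by -0.09 and 2.16. The promoter window of Stfa3l1 was also the least like the others, at 54.3% to 58.3% identical bases, whereas Stfa2l2 and Stfa2l3 shared 84% and yet differed in pair 1. In the epidermal differentiation region, S100a8, Pglyrp3, LOC102550890, Sprr2d and Sprr1b are 5 of 12 successive genes. Within 10 measured genes of another agreeing gene lay 27 of the 71 higher genes and 4 of the 18 lower ones. The same share was not computed for all genes, so these counts cannot show whether agreeing genes cluster.

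Junction genes were higher in both animals for 20 of 31 measured members, with 1 below 0 in both (the tight junction gene Ocln, at -0.06 and -0.09), and medians of 1.05 and 0.22. The desmosomal cadherin Dsg1 read 10.36 and 14.05 in pair 1 and 12.72 and 14.35 in pair 2, so both neoplasia arrays were above both normal arrays. Dsc3, its partner cadherin of the lower layers, differed by 2.85 and 1.12. Among measured genes, these 2 lie on either side of 1 other gene, and the desmosomal cadherin genes Dsc1 and Dsc2 were not measured. Perp, a desmosomal membrane protein induced by p63, differed by 5.61 in pair 1 but by 0.91 in pair 2.

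Envelope cross-linking and barrier enzymes were above 0 in both pairs for 20 of 36 and below 0 in both for none, with medians of 0.90 and 0.18. Tmprss11b, the membrane protease of squamous epithelia, read 5.58 and 8.34, then 6.56 and 7.86. Klk14, a kallikrein that cleaves desmosomal proteins during shedding, had nearly the same step in both animals, 1.17 and 1.13. Just below the threshold stood Klk10 (1.99 and 0.99), the lipid transporter Abca12 (2.55 and 0.99) and Scel, an envelope-associated protein (2.81 and 0.99), and just inside it Defb5 (1.89 and 1.01), Septin7 (1.01 and 1.02) and LOC102550890 (3.01 and 1.01). Suprabasal keratins and squamous markers were above 0 in both for 15 of 39 and below 0 in both for none, with medians of 0.91 and 0.02. Only Krt23, a type I keratin, was at least 1 higher in both, at 6.91 and 8.86, then 8.60 and 10.17, where the normal array of pair 2 came close to the neoplasia array of pair 1.

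Regulators of squamous cells were above 0 in both animals for 19 of 30 and below 0 in both for 2, with medians of 0.63 and 0.15. Klf5, a zinc-finger factor of proliferating basal epithelium, read 7.02 and 8.91, then 7.90 and 9.42. Its mean difference was 1.71 ± 0.26 (limma SE, 2 pairs). Tp63, the master regulator of stratified epithelium, read 7.65 and 9.62, then 8.52 and 9.55. Ehf, an Ets factor of differentiating epithelium, differed by 3.24 and 1.24. For these 3 genes the groups did not overlap. Bhlhe40, a transcriptional repressor also induced by hypoxia, differed by 1.01 and 1.07, with the normal array of pair 2 (7.49) above the neoplasia array of pair 1 (7.38).

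Cd44, the hyaluronan receptor of basal and wound-edge keratinocytes, read 7.51 and 10.15 in pair 1 and 8.14 and 10.16 in pair 2. The neoplasia arrays were nearly equal and lay above both normal arrays, with a mean difference of 2.33 ± 0.38 (limma SE, 2 pairs). It sits 3 measured genes from Ehf in the gene order. The basal list was otherwise mixed: 10 of 27 above 0 in both, 4 below 0 in both, and medians of 0.54 and -0.07. Krt14, the basal keratin, read 8.06 and 15.77 in pair 1 but 11.03 and 11.15 in pair 2. Igfbp3 differed by 0.18 and 0.22, and Sox2, a lineage factor of the oesophagus, by -0.88 and -0.07.

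Among stress and alarmin genes, 11 of 25 were above 0 in both and 2 below 0 in both, with medians of 0.45 and 0.28. S100a8, a subunit of calprotectin made by stressed keratinocytes and by neutrophils, read 5.98 and 8.12, then 5.47 and 7.54, without overlap, and its step was alike in both animals at 2.14 and 2.06. Its partner S100a9 read 5.73 and 6.37, then 4.94 and 5.95. Of 23 neutrophil genes, 4 were above 0 in both and 1 below 0 in both, beside 21% and 17.5% of all genes. The list's medians were -0.24 and 0.12. Cxcr2 differed by 0.14 and 0.53 and Il1r2 by 0.59 and 0.39. Mpo, which defines the granules of these cells, differed by -0.24 and 0.28 at values from 3.92 to 4.28. Which cells gave the S100a8 step was not tested.

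Il36g, an interleukin-1 relative released by keratinocytes, read 5.82 and 8.87, then 6.96 and 8.02. Il36a, from the same family, differed by 0.63 and 1.71. Of the 26 members of the interleukin-1 and interleukin-36 list, these included, 7 were above 0 in both and 3 below 0 in both, beside 21% and 17.5% of all genes. The decoy receptor Il1r2 differed by 0.59 and 0.39 and Il1a by 0.11 and 0.22, while Il1b was of opposite sign, at -0.34 and 0.43. Ereg, a ligand of the EGF receptor, differed by 1.48 and 1.10, while the EGF receptor list had medians of 0.08 and 0.08. Fgfbp1, a carrier that frees FGFs from the matrix, differed by 1.17 and 0.91. Gpr15lg, a chemoattractant ligand of the receptor GPR15 made by epithelia, read 5.32 and 9.71, then 7.24 and 8.96.

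Chemokines and immune lists were near the all-gene medians. Ccl2, which attracts monocytes, differed by 1.67 and 0.75, and Cxcl13, which attracts B cells, by 0.58 and 1.42. Of 54 cytokines and chemokines, 15 (27.8%) were above 0 in both and 7 (13%) below 0 in both, beside 21% and 17.5% of all genes. None was at least 1 apart in both. Macrophage and dendritic genes were below 0 in both for 6 of 30 (20%), and T, NK and B cell genes for 8 of 32 (25%), beside 17.5% of all genes. In the NF-kB list Cyld, a deubiquitinase that restrains the pathway, was the member at least 1 higher in both, reading 5.79 and 7.51, then 6.42 and 7.72.

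Proliferation genes differed little but often the same way. Of 66 measured, 36 were above 0 in both pairs and 3 below 0 in both, beside 21% and 17.5% of all genes, and none reached 1 in both. The medians were 0.11 and 0.25. Mki67, the nuclear antigen of cycling cells, read 5.71 and 6.48, then 5.94 and 6.995. Both neoplasia arrays were above both normal arrays, with a mean difference of 0.91 ± 0.24 (limma SE, 2 pairs). Top2a, the mitotic topoisomerase, differed by 0.97 and 0.43, Cenpe, a kinetochore motor, by 0.58 and 0.74, and Ube2c, which helps end mitosis, by 0.72 and 0.49. DNA replication genes were closer to the background, with 13 of 36 above 0 in both, 4 below and medians of 0.02 and 0.08.

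Growth arrest and repair genes gave small steps. Cdkn1a, the p53-induced inhibitor of cyclin-dependent kinases, read 6.53 and 7.27, then 6.19 and 6.81, and its groups did not overlap. Of 34 p53 targets, 16 were above 0 in both and 4 below 0 in both. Ogg1, the glycosylase for oxidised guanine, differed by 0.38 and 0.78, and the kinase gene Chek1 by -0.74 and -0.32. DNA repair genes had medians of -0.03 and 0.07.

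Of 57 NRF2, glutathione and thioredoxin genes, 23 were above 0 in both pairs and 7 below 0 in both, and none was at least 1 apart in both. Gpx2, the epithelial glutathione peroxidase, read 7.39 and 10.01, then 9.80 and 10.69. Gstm1, a glutathione transferase, differed by 0.97 and 1.75, and Slc7a11, the cystine transporter, by 0.59 and 1.76. Nqo1, a flavin-dependent quinone reductase and NRF2 target, differed by 0.29 and 1.003. Among 48 genes of riboflavin transport and flavin enzymes, 10 were above 0 in both and 14 below 0 in both, beside 21% and 17.5% of all genes. Rfk, which makes FMN from riboflavin, differed by 0.35 and 0.31, the transporter Slc52a3 by 0.14 and 0.20, and the transporter Slc52a2 by -0.29 and 0.16. Their values were near or below the negative controls: Rfk from 4.92 to 5.54, Slc52a3 from 5.11 to 5.37 and Slc52a2 from 4.40 to 4.83.

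Lipid genes with agreeing steps included Elovl1 and Elovl6, elongases of long fatty acids, at 3.79 and 0.98 and at 0.73 and 1.28. Of 34 fatty acid and sterol synthesis genes 14 were above 0 in both and 3 below 0 in both. Among agreeing genes outside every list, named after their values were seen, were Fabp5, the epidermal fatty acid carrier (4.87 and 1.39), Pla2g4e, a phospholipase A2 (1.76 and 1.16), Lipk, a keratinocyte lipase (1.75 and 1.18), Pglyrp3, an antibacterial peptidoglycan-binding protein (1.15 and 1.04), and Ncl, the nucleolar protein nucleolin (1.85 and 1.07). Tuba1c, an alpha tubulin, differed by 2.16 and 1.19 and Il13ra1, a subunit of the interleukin-13 receptor, by 1.53 and 1.06. By kind, 58 of the 71 were ordinary named genes (0.325% of 17852 such genes), beside 0.321% of all genes. Pseudogenes or ribosomal copies were 6 (0.62% of 967) and predicted genes 3 (0.172% of 1749). MicroRNA genes were 3 (0.785% of 382) and other small RNA genes 1 (6.67% of 15).

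Of the 18 genes lower in neoplasia of both animals, 8 have known roles in striated muscle (Lmod2, Pdlim3, Klhl41, Csrp3, Flnc, Nrap, Nmrk2 and Xirp2), 4 of them in the skeletal muscle list. Those outside the list were assigned to muscle after their values were seen. The share of such genes among all genes was not computed. The rest of the 18 were 4 microRNA genes, 2 predicted genes (LOC102552429, at -3.59 and -2.03, and LOC102552725), the olfactory receptor gene Or9m1b, Llph, Scn7a and Cetn3. Klhl41 read 11.40 in normal tissue and 9.36 in neoplasia of pair 1, and 11.44 and 9.75 in pair 2. Both neoplasia arrays were below both normal arrays, with a mean difference of -1.87 ± 0.32 (SE, 2 pairs; limma unadjusted p = 0.00242, adjusted p = 1).

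Pdlim3, a Z-disc adaptor, read 9.29 and 7.57, then 8.41 and 6.55, without overlap. Lmod2, which nucleates thin filaments, read 8.12 and 6.35, then 9.98 and 8.18, and here the normal array of pair 1 was just below the neoplasia array of pair 2. Xirp2 read 14.74 and 10.96, then 13.38 and 12.33. Csrp3, the muscle LIM protein, differed by -2.34 and -1.66, Flnc, the muscle filamin, by -1.55 and -1.42, Nrap, a myofibril assembly protein, by -1.55 and -1.32, and Nmrk2, a muscle nicotinamide riboside kinase, by -1.74 and -1.20. Cav3, the muscle caveolin, fell just outside the threshold at -0.95 and -1.04, as did Bex1 (-3.50 and -0.94) and Tmsb4x, an actin-binding peptide (-0.97 and -2.98). Just inside stood Cetn3, a centrosome protein, at -1.21 and -1.05.

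**Figure D3:**
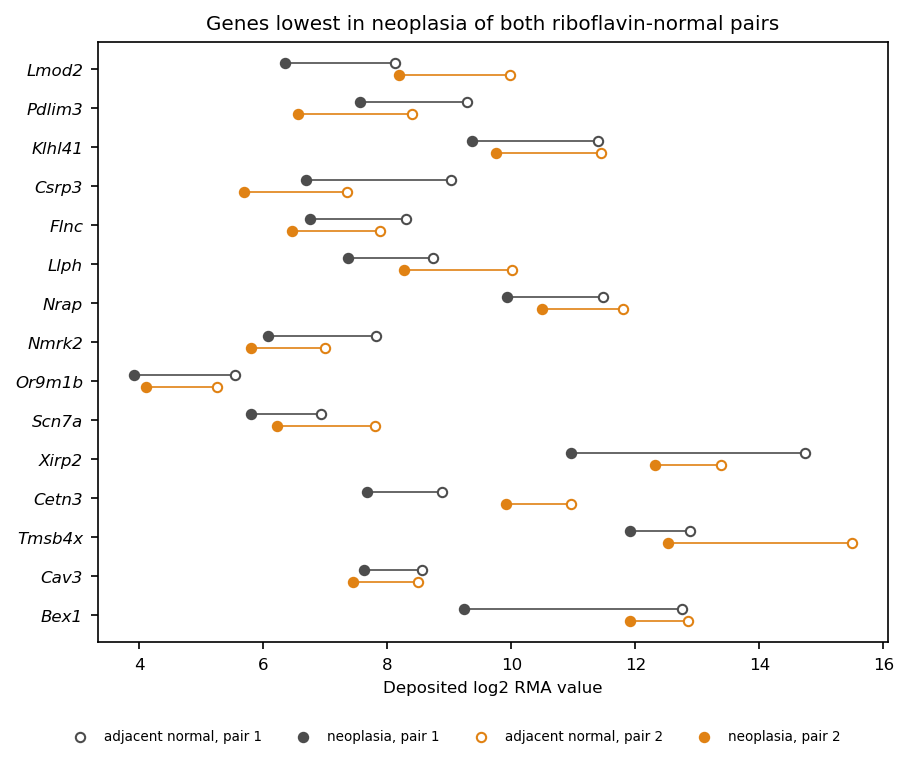
Deposited log2 values of the 15 genes lowest in neoplasia of both pairs by the naming rule; open circles are adjacent normal, filled circles neoplasia, grey is pair 1 and orange pair 2. In every gene the filled circle lies to the left of the open circle of the same animal.

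Of 62 skeletal muscle genes, 33 were below 0 in both pairs, 2 above 0 in both (Fbxo32 at 1.11 and 0.41, Jsrp1 at 0.12 and 0.07) and 4 at least 1 lower in both, beside 17.5% and 0.0815% of all genes. The abundant contractile genes did not share the step in pair 1. Acta1, skeletal alpha-actin, read 17.13 and 17.10 in pair 1 and 18.21 and 17.13 in pair 2, and the list's medians were -0.05 and -1.14. Smooth muscle genes were below 0 in both for 10 of 23 and above 0 in both for none, with medians of 0.05 and -1.23. Acta2, smooth muscle actin, was of opposite sign, at 1.32 and -3.19. Skeletal muscle markers had a median of 14.73 in normal tissue and 15.95 in neoplasia of pair 1, and of 17.16 and 15.56 in pair 2.

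Several lists had medians that differed in sign or size between the animals. Extracellular matrix and fibroblast genes had medians of 0.15 and -1.16, with 11 of 40 (27.5%) below 0 in both, beside 17.5% of all genes. Among them were Postn (-0.55 and -0.88), a matrix protein of wounds and tumours, and Ogn (-0.70 and -0.53), a small proteoglycan. Cytosolic ribosomal proteins had medians of 1.04 and -0.38. Of 68, 16 (23.5%) were above 0 in both, near the 21% of all genes, and none was below 0 in both, beside 17.5%. Oxidative phosphorylation had medians of 0.16 and -0.74, and heat shock and ER chaperones 0.66 and 0.00. Beside these stand the control separations of 0.119 in pair 1 and -0.063 in pair 2, whose part was not tested. Chaperones with the same sign in both included Hspd1, the mitochondrial chaperonin, at 1.28 and 0.76, and P4hb, a protein disulfide isomerase, at 1.58 and 0.91.

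**Figure D4:**
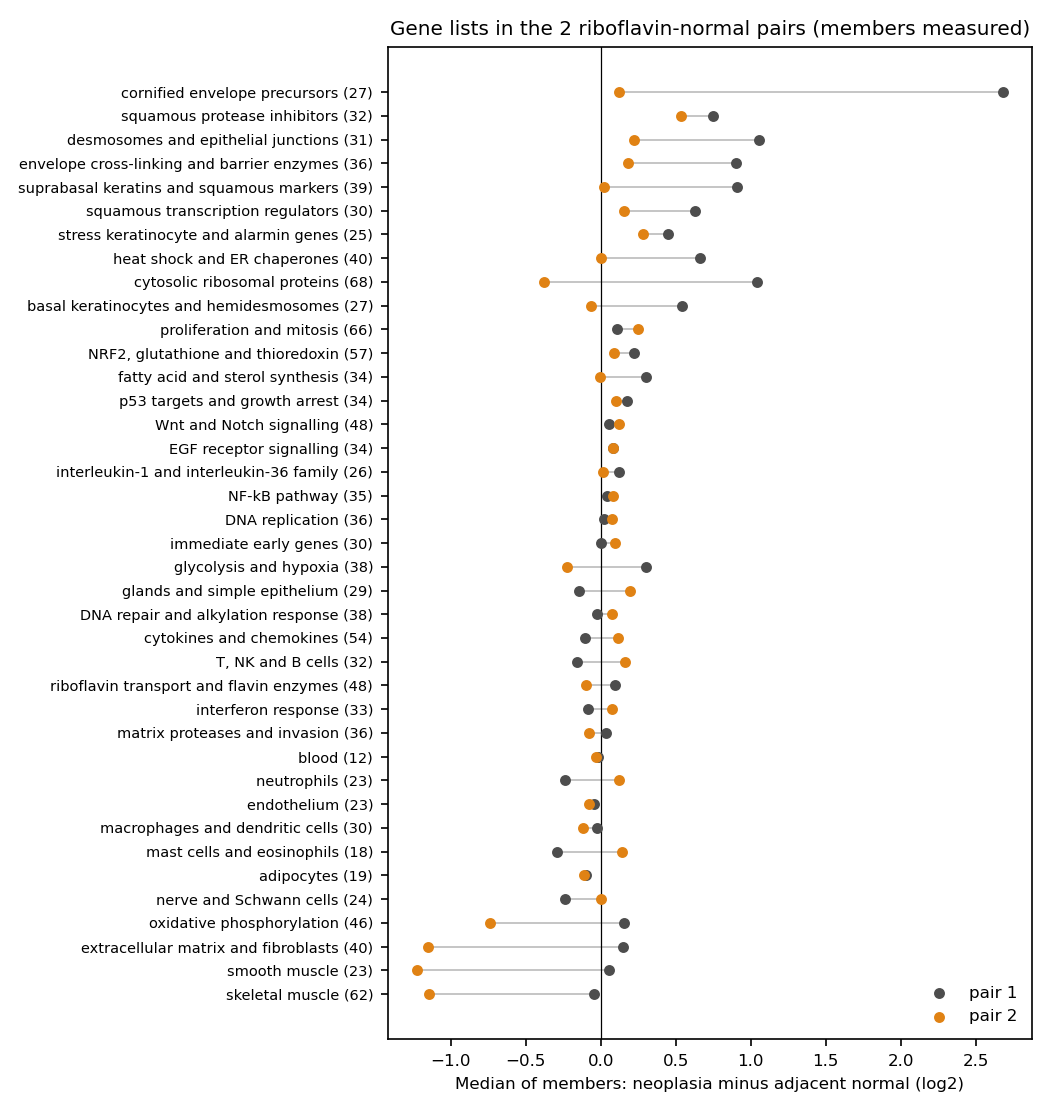
Median neoplasia minus adjacent normal log2 difference of each of 39 gene lists in pair 1 (grey) and pair 2 (orange), with the number of measured members in brackets. Protease inhibitors have both medians above 0.5, whereas ribosomal, matrix, smooth muscle and oxidative phosphorylation lists have medians on opposite sides of 0.

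Over all genes, both neoplasia arrays lay above both normal arrays for 2759 (12.5%) and below both for 2267 (10.3%). Of the 71 higher genes 61 were apart in this way, and of the 18 lower genes 16, as their choice by size largely fixes. The median of the 71 was 1.85 in pair 1 and 1.25 in pair 2, and 60 of them were farther apart in pair 1. The 18 had medians of -1.67 and -1.5. None of the 89 was at the ceiling on any of the 4 arrays.

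Some microRNA genes were among the 89, named here after their values were seen. The mature sequences, from RefSeq (GRCr8), are shown with the seed, bases 2 to 8, in capitals, for the gene farthest apart in each direction.
rno-miR-708-5p: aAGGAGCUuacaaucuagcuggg
rno-miR-350: uUCACAAAgcccauacacuuucac

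The microRNA gene Mir708 read 4.44 and 9.99 in pair 1 and 4.24 and 5.51 in pair 2, so that most of its difference came from 1 array. Mir350 read 6.67 and 4.83, then 5.52 and 3.64. The probe sets carry the gene's name and do not say whether precursor or mature RNA was read. In all, 3 of 382 microRNA genes (0.785%) were at least 1 higher in both pairs and 4 (1.05%) at least 1 lower. The others were Mir505 and Mir383 among the higher, and Mir126a, Mir421 and Mir1843b among the lower.

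The riboflavin-deficient pairs were set beside these values. The 71 higher genes had medians of -1.04 and -0.03 in the deficient pairs. Of the 71, 32 were below 0 in both deficient pairs and 6 above 0 in both: S100a8, Gpr15lg, Stfa2, Stfa2l3, Mir383 and Il36g. S100a8 alone was at least 1 higher in all 4 animals, at 1.02 and 3.17 in the deficient pairs. Sprr1b differed by -2.05 and -1.52 there, Csta by -3.23 and -0.21, and Serpinb5 by -2.07 and 0.33. The test of the difference between diets called 0 of 22093 genes (0%) in limma at an adjusted p under 0.05. At an unadjusted p under 0.05 were 760, again a share below 0.05. The lowest adjusted p was 1, so no difference between diets was shown for any gene.

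The 18 lower genes had medians of -1.18 and 0.04 in the deficient pairs, with 8 below 0 in both and 4 above 0 in both. Klhl41 differed by -1.17 and -0.02 there, Pdlim3 by -1.19 and -0.22, and Csrp3 by -1.74 and 1.497. The control separation of neoplasia minus normal was -0.042 and 0.002 in the deficient pairs.

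**Figure D5:**
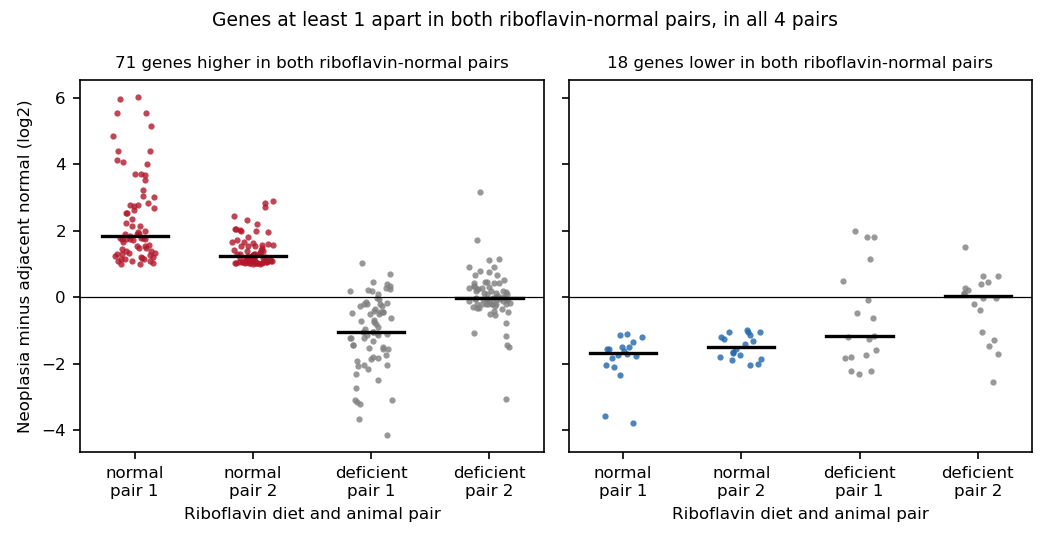
Neoplasia minus adjacent normal log2 differences of the 71 higher (left) and 18 lower (right) genes in both riboflavin-normal pairs (coloured) and both riboflavin-deficient pairs (grey); black bars are medians. The genes were chosen in the coloured pairs, and in the grey pairs the medians are -1.04 and -0.03 for the higher and -1.18 and 0.04 for the lower genes.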

How the data were processed

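Gene expression was measured on 8 arrays of fixed rat oesophagus. The authors deposited log2 values that Affymetrix Expression Console and RMA had given for each probe set, per the submitters' processing notes. RMA corrects background, normalises all arrays together and summarises probes, so values of 1 array depend on the others. Tool versions and the genome build are not given in the sources used here. The number of arrays limits the precision.

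The table held 70580 probe sets. A single symbol was paired with 23446, several with 505, and 44891 transcript probe sets and 1738 controls had none. Symbols were updated by Entrez ID (22077 matched, 1 changed), and of 1182 genes with several probe sets the one with the highest mean was kept, which left 22093 genes. Groups came from the titles and pairs from the animal code that both tissues share in the descriptions. Same-animal deviations from the group means correlated at 0.19 on the riboflavin-normal and 0.16 on the deficient diet.

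Differences are neoplasia minus adjacent normal. The test was limma 3.58.1 (lmFit, eBayes; R 4.3.3) over all 8 arrays with each animal as a block and a separate neoplasia effect for each diet, Benjamini-Hochberg adjusted over all genes at 0.05. The mean difference uses the riboflavin-normal pairs alone, and its standard error also draws on the spread of the deficient pairs. The procedure was tested on simulated data. Tables and figures used Python 3.11.15, pandas 2.3.3, numpy 2.4.6 and matplotlib 3.10.9.

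Agreement of a gene is the smaller of its absolute pair differences if both have 1 sign. Named were the 15 genes per direction with the largest agreement among those with the higher group mean at or above 5.11 (leaving out predicted genes, small RNAs and genes at the ceiling), up to 4 members per direction of each of 39 gene lists, and a fixed panel of squamous, alarmin, cycle, flavin and muscle genes. The lists held 1508 entries, of which 1383 were measured. Krt5 and Krt6a had no single-symbol probe set and were not analysed here. The members, lists and thresholds were chosen with earlier results of these data known. Alternatives covered normalization, filter, probe set choice, ceiling, trended variance, the block, a control separation covariate, the arrays fitted, the size threshold and leaving out each pair.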

Additional observations from a re-analysis of the deposited data

Results flagged for a closer look

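Probe sets with no gene symbol were outside every comparison above, and some of them differed by at least 1 in both pairs. Of 44891 such transcript probe sets, 179 (0.399%) were at least 1 higher in neoplasia of both riboflavin-normal pairs and 103 (0.229%) at least 1 lower in both, beside 0.321% and 0.0815% of the named genes. No test was run on these shares, and the probe sets are unnamed here.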

How the results depend on the processing

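With 2 animals, no alternative fit called a gene at an adjusted p under 0.05. With no replicate block, that is without a term per animal, limma called 0 genes with 645 at an unadjusted p under 0.05, against 806 with it. Among the brighter genes alone it was 491, but of 11047 genes only. Over the other fits with both pairs, of 22077 or 22093 genes, unadjusted counts ran from 572 on the riboflavin-normal arrays alone to 1882 with control separation as a covariate. The diet difference has no value on the riboflavin-normal arrays alone. The count of higher genes ran from 64 to 71 and that of lower genes from 15 to 28 over the normalization, filter, probe set and ceiling settings, the 28 under cyclic loess. Of the 71, 57 remained under cyclic loess and 58 under quantile normalization, and of the 18, 17 and 16. Leaving out 1 pair gave 252 to 904 higher and 380 to 651 lower genes, by construction, since only 1 pair must then pass. A difference of 0.5 in both pairs was reached by 355 genes higher and 119 lower, and one of 1.5 by 17 and 7.

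Of 2810 gene values, 2800 kept their direction. Genes named by size or from a list have 1 sign in both pairs by the naming rule, so leaving out a pair could not turn them. Mean differences turned for Vcam1 (0.011 under quantile normalization, 0.024 under cyclic loess), Maff (0.004 under cyclic loess), Tap2 (-0.015 with all probe sets averaged) and Slc52a2 (0.005 with the covariate), all close to 0. Leaving out 1 pair, the mean difference ran from -0.013 to 2.14 for Krt4, from -0.061 to 3.10 for Krt13, from -0.29 to 0.16 for Slc52a2, from -0.34 to 0.43 for Il1b and from -3.19 to 1.32 for Acta2. The cause was not tested. Of 273 list medians, 241 moved by less than the spread between pairs.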
